A study of Mus musculus with 9 samples.

Results

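Interleukins, members of the tumour necrosis factor (TNF) superfamily, colony-stimulating factors and their receptors carry signals between epithelium, stroma and immune cells, and the genes considered here are these together with the NF-kB and SOCS proteins that act inside the receiving cell. They were taken by gene symbol: symbols beginning with Il and a digit, Tnf, Csf and a digit, Osm, Crlf, Nfkb or Socs and a digit, and the genes Tslp, Lif, Lifr, Rel, Rela and Relb. Of the 13336 genes of the deposited table, 93 matched, namely 25 ligands, 43 receptors and 25 intracellular regulators or other genes that share the name. All 93 were found in the GENCODE M21 annotation of the mm10 build. Members of the interleukin-1 and TNF receptor families feed into NF-kB, a set of transcription factors that I-kB proteins hold in the cytoplasm until the signal arrives. Receptors of most other interleukins and of the interleukin-6 family act through JAK kinases and STAT factors, which SOCS proteins restrain. In airway epithelium these routes are known for calling neutrophils, for starting type 2 immunity through the alarmins Tslp and Il33, and for regulating repair.

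Both groups were primary mouse tracheal gland cells, expanded in culture and compared by mRNA sequencing. The 5 Lef1KI libraries came from mice of the strain labelled ACTA2 -CreERT2:Lef-1KI+/+, and the 4 WT libraries from mice labelled ACTA2-CreERT2:ROSA-TG, a label without the Lef-1 knock-in. Each library was 1 culture pooled from 3 to 5 animals (no age is stated in the labels), and every animal had 5 daily tamoxifen doses to activate a Cre under the promoter of Acta2, a smooth muscle actin gene. All cultures were kept to passage 1 with the ROCK inhibitor Y-27632 at 10 µM, and with the BMP receptor inhibitor DMH-1, the TGF-beta receptor inhibitor A83-01 and the GSK3 inhibitor CHIR 99021, which activates Wnt signalling, at 1 µM each. Cells were then sorted, as GFP-negative cells from Lef1KI and as GFP-positive cells from WT cultures, so genotype and gate cannot be told apart in any comparison below. The Cre is driven by Acta2, which other contractile cells also use.

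Values are TPM, a gene's share of all transcripts corrected for length, deposited as log2(TPM + 1). Differences are Lef1KI minus WT on that log2 scale, with their standard error (SE), from limma-trend over all 13336 genes. A gene is said to have risen, fallen or passed at a Benjamini-Hochberg adjusted p under 0.05. Lef1 averaged 227 ± 79.8 TPM (SD) over the 5 Lef1KI libraries, against 0.448 ± 0.0763 TPM over the 4 WT libraries, a difference of 7.23 (exact two-sided permutation p 0.0159, the smallest the design allows). Median log2(TPM + 1) lay between 3.76 and 3.97 in Lef1KI and between 3.58 and 3.84 in WT libraries. The median difference of all genes was 0.14, and it was −0.018 with each library centred on its median (median centring), or −0.00015 with trimmed-mean scaling. Of 8 measured basal and myoepithelial markers none passed the test (limma, with 2 at an unadjusted p under 0.05), and their summed level was 16097 to 18177 TPM in Lef1KI cells and 12780 to 19493 TPM in WT, nearly all of it keratin genes. The 2 went opposite ways: Acta2, also the source of the Cre promoter, was at 62.3 ± 31.2 TPM in Lef1KI cells and 129 ± 41.04 TPM in WT (difference −1.13, limma adjusted p 0.0834), and Myl9 had 10.4 ± 3.65 TPM in Lef1KI cells and 6.08 ± 2.16 TPM in WT (0.66, adjusted p 0.184). Cnn1 and Oxtr, also myoepithelial markers, were not analysed here. Of 11 fibroblast markers 9 rose, with summed levels of 294 to 980 TPM in Lef1KI cells and 70.7 to 131 TPM in WT. Of 7 endothelial markers 5 rose, with sums of 14.2 to 46.6 TPM in Lef1KI cells and 4.14 to 12.3 TPM in WT. Esam went the other way, at 2.15 ± 0.895 TPM in Lef1KI cells and 5.24 ± 4.10 TPM in WT (difference −0.74, limma adjusted p 0.321). Tek had a difference of 0.016, and Tie1, Cldn5, Vwf and Robo4 were not analysed here. The authors' filter (below) kept the 5 that rose, and the risen fibroblast markers Thy1 and Postn, only through Lef1KI, where they are high. Only 4 of 11 leukocyte markers were measured, of which Cd14 rose, and their sum was 58.7 to 252 TPM in Lef1KI cells and 115 to 264 TPM in WT. Most of that sum was Cd68 (93.7 ± 82.1 TPM in Lef1KI cells and 180 ± 60.9 TPM in WT, difference −1.18, limma adjusted p 0.136), while Itgb2 and Adgre1 had positive differences that did not pass and Adgre1 was at 0.1 to 0.2 TPM in Lef1KI cells and 0 to 0.01 TPM in WT. Ptprc, the pan-leukocyte gene, was not analysed here. None of these measured markers was at or under 0.1 TPM in all 9 libraries. In the bulk RNA of a sorted culture, more cells of a type and more RNA per cell cannot be told apart.

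Of the 93 genes 19 rose and 2 fell in Lef1KI. These 21 are 22.6% of the group, where 7.97% of all genes passed in either direction, 6.73% higher and 1.24% lower. The median difference of the 93 was 0.30, and 76 of them had positive differences, against 9281 of the 13336 genes. With each library centred on its median 15 rose and 2 fell (18.3% of the 93), where 7.03% of all genes passed. Of the 93, 64 were then positive and their median became 0.14, with the median of all genes at −0.018. The authors had kept only genes whose log2 mean reached 3 SD in 1 of the groups, a filter that used the groups compared here. Means ± SD below are of TPM with n = 5 Lef1KI and n = 4 WT libraries. Among the 93, 10 were under 3 SD in Lef1KI and 9 in WT, so that Il17b, Il16, Tnfsf13b and Tnfrsf11b entered the table only through Lef1KI, where they are high. In 23 of the 93 (24.7%) the libraries of the groups did not overlap, as in 11.9% of all genes. The 23 comprised 18 of the 21 that passed, all except Il1rn, Il17rc and Il20ra, together with Il6, Il27ra, Nfkb2, Socs4 and Socs5. By role, 9 of 25 ligands rose and 1 fell, 7 of 43 receptors rose and 1 fell, and 3 of the 25 regulators and other genes rose. Calls were counted again without each library, and 13 of the 93 passed without Lef1KI C, WT B, WT D or WT E (the percentage over all genes was 5.68, 4.82, 5.65 and 4.71), while 29 passed without Lef1KI A (12.6% of all genes).

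**Figure D1:**
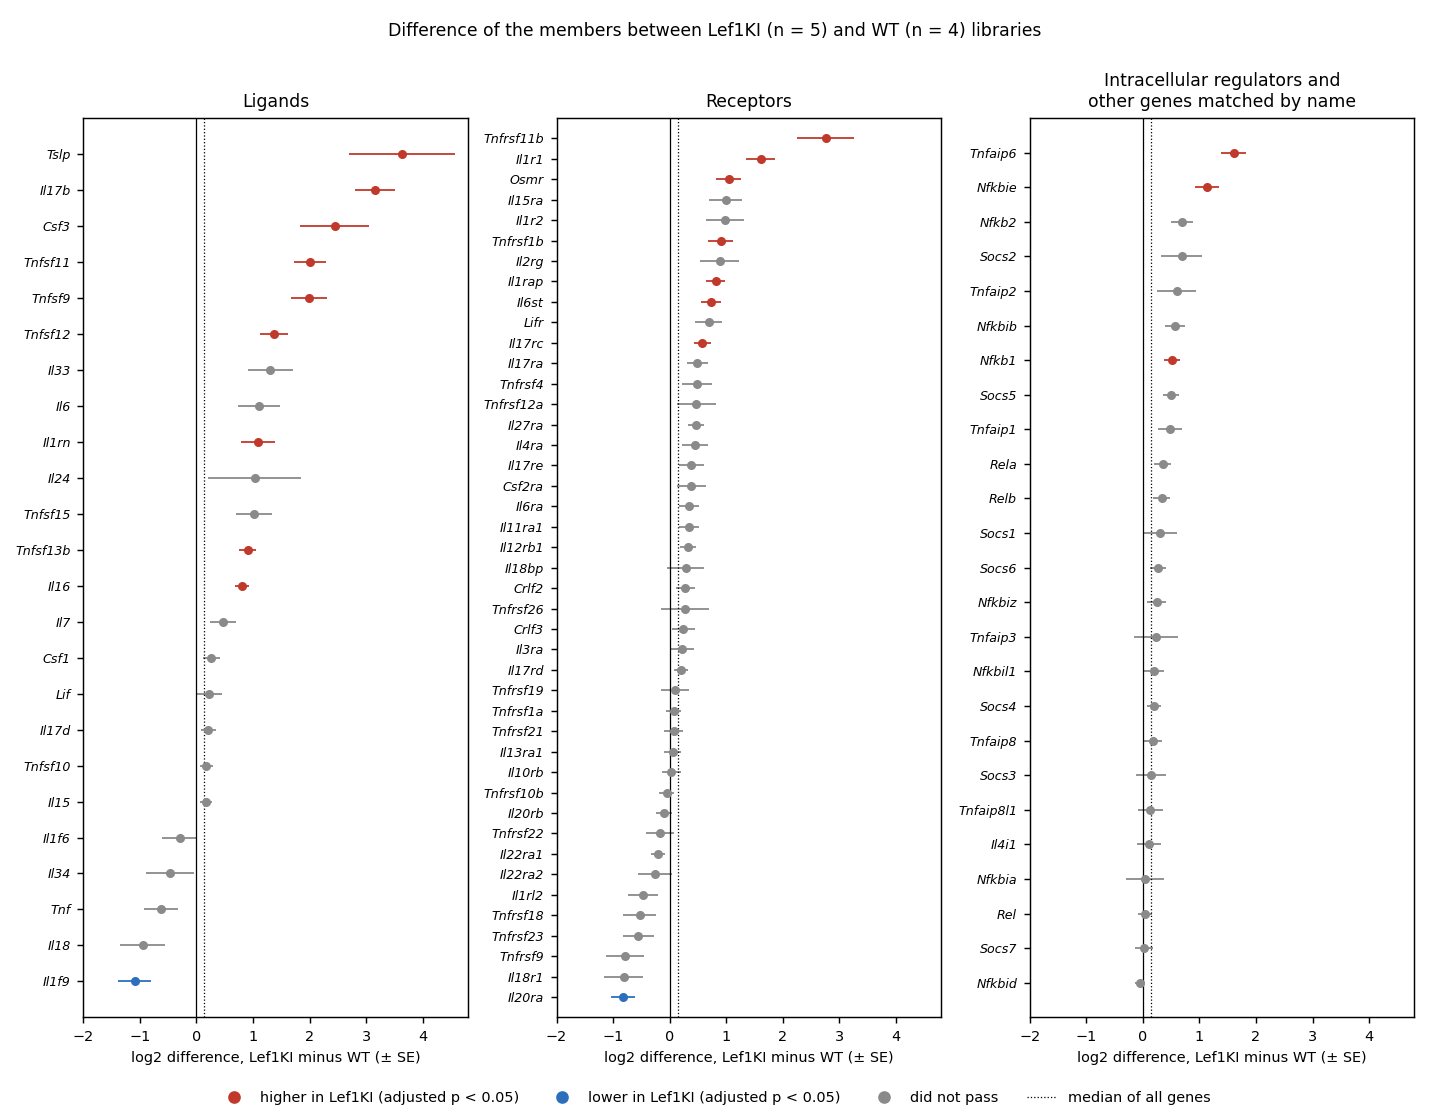
Log2 difference, Lef1KI (n = 5) minus WT (n = 4), with its SE for the 93 genes except 1 that is not reported here, split by role and ranked by size. Red points rose and blue points fell at an adjusted p under 0.05, grey points did not pass, the solid line is 0 and the dotted line is the median of all genes at 0.14. Most ligands and nearly all regulators lie right of 0, as do 69.6% of all genes. Median centring put the median of all genes at −0.018, so the 69.6% does not apply there. After it, 4 of 6 I-kB genes, 4 of 5 NF-kB subunits, 5 of 7 SOCS genes and 5 of 7 other regulators were positive.

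Since many of these genes are read out through NF-kB, the start-site windows of the genes were searched for its kappaB element, taken as GGGNN followed directly by TTTCC, on either strand. RefSeq windows on GRCm38.p6, from 250 bases before to 50 after each annotated start, were at hand for 65 of the 93 genes (85 windows, several genes having more than 1 start). The element was in 14 of the 85 windows (16.5%), belonging to 11 genes, and in 1.63% of all 32851 windows. CTTTGA, the core bound by TCF/LEF factors (TCAAAG on the other strand), was in 6 of the 85 windows (7.06%) and in 16.0% of all windows. The AP-1 element TGANTCA was in 15 of the 85 (17.6%) and in 7.81% of all. Counted by gene, 11 of the 65 held the kappaB element, 6 the TCF/LEF core and 14 the AP-1 element. Of the 12 risen genes with a window, 3 held the kappaB element, 2 the TCF/LEF core and 6 the AP-1 element. No count by gene was made over all genes, so counts of genes cannot be set against the shares of windows. These are matches of letters and not tests of binding, and windows of 1 gene overlap. The 3 risen genes with the kappaB letters, Il16, Il1rn and Il17rc, are shown with Nfkb2 and Nfkbia, which hold the element and did not pass. Only 1 window per gene is shown, and the position depends on the start taken. Another window of Il1rn had the same site at bases 280 to 289. Other windows of Nfkb2 had the site shown at bases 26 to 35 and a separate site at bases 240 to 249. A site in overlapping windows thus counts more than once in the shares of windows. Sequences run 5′ to 3′ along the gene's own strand, with the transcript start after the first 250 bases, and have the element in capitals.
Il16 (chr7:83655446-83655745, minus strand, capitals at bases 202 to 211): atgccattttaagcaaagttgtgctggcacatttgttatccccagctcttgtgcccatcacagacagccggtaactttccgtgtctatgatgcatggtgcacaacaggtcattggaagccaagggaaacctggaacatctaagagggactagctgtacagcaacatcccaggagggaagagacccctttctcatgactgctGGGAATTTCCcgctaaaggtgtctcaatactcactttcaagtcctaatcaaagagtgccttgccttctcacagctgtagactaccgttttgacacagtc
Il1rn (chr2:24345121-24345420, plus strand, capitals at bases 200 to 209): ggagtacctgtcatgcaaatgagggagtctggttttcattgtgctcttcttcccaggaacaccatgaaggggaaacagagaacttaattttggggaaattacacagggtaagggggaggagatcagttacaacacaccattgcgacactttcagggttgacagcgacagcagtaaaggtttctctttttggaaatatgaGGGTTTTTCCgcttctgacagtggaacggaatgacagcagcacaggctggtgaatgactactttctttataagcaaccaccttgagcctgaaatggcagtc
Il17rc (chr6:113471205-113471504, plus strand, capitals at bases 15 to 24): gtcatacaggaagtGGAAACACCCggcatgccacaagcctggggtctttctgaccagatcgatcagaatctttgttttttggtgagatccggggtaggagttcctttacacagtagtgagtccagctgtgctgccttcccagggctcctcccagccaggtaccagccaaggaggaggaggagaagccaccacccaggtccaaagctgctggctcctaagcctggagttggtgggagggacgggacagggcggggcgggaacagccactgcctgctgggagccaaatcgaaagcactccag
Nfkb2 (chr19:46305445-46305744, plus strand, capitals at bases 261 to 270): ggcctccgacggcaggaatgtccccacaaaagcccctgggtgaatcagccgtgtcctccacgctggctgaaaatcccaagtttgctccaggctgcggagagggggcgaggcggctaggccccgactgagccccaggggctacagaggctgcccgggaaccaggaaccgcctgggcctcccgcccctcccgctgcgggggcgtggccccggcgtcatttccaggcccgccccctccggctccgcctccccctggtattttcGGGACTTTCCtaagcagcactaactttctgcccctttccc
Nfkbia (chr12:55492598-55492897, minus strand, capitals at bases 222 to 231): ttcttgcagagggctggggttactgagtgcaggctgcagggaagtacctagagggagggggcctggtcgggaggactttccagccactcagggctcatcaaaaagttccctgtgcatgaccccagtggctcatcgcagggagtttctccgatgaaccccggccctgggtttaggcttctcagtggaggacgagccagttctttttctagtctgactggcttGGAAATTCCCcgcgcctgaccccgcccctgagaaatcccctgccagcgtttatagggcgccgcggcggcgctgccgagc

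Among the measured ligands of the interleukin-1 family, an antagonist rose and an agonist of another receptor, that of interleukin-36, fell. Il1a and Il1b, which encode the agonists that Il1rn opposes, were not analysed here. Il1rn encodes the antagonist that occupies the interleukin-1 receptor without signalling. It had 65.1, 42.6, 63.5, 25.7 and 35.6 TPM in Lef1KI A to E, against 12.3, 20.2, 25.3 and 25.7 TPM in WT A, B, D and E. Lef1KI D lay within 0.1 TPM of the highest WT library and the other 4 Lef1KI libraries above all WT. The difference was 1.09 (SE 0.30, limma adjusted p 0.0483). The call was lost under both rescalings and with no trend (limma adjusted p 0.0232 to 0.254 over all alternatives). Among the 9 fits that each left out 1 library, which gave differences of 0.87 to 1.27, it held only without Lef1KI D. Il1f9, which encodes interleukin-36 gamma, an agonist of barrier epithelia, fell. It had 2.75, 2.35, 3.69, 2.07 and 3.09 TPM in Lef1KI A to E, against 4.88, 3.84, 12.6 and 9.51 TPM in WT A, B, D and E. All Lef1KI libraries were below all WT libraries, with WT D and E well above WT A and B. The difference was −1.09 (SE 0.29, limma adjusted p 0.0447), and it passed only without WT A or WT B of the 9 fits (−1.33 to −0.84). The other 3 ligands of the family did not pass. The alarmin Il33 had 17.1 ± 10.4 TPM in Lef1KI cells and 5.62 ± 1.94 TPM in WT (difference 1.31, limma adjusted p 0.0702), and of the 9 fits it passed only in the one without Lef1KI B (1.53). Il18 had 4.03 ± 1.62 TPM in Lef1KI cells and 9.83 ± 7.01 TPM in WT (difference −0.95, limma adjusted p 0.184), and Il1f6 had 0.958 ± 1.03 TPM in Lef1KI cells and 1.24 ± 0.503 TPM in WT.

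Among ligands the largest rises were in an alarmin, an interleukin-17 family member and a granulocyte growth factor. Tslp (chromosome 18 from 32815383 to 32819797), whose protein alerts dendritic cells and starts type 2 responses, had 1.62, 48.1, 147, 15.4 and 73.0 TPM in Lef1KI A to E, against 1.26, 1.16, 1.57 and 1.57 TPM in WT A, B, D and E. Lef1KI A lay just above the WT libraries, and the others were far above them and spread over a wide range. The difference was 3.64 (SE 0.94, limma adjusted p 0.0389). Of the 9 fits (differences 3.06 to 4.52) it passed in 1, the one without Lef1KI A. Csf3 (chromosome 11 from 98701263 to 98703629) encodes granulocyte colony-stimulating factor, which drives neutrophil production. It had 10.0, 46.7, 84.4, 14.6 and 83.4 TPM in Lef1KI A to E, against 8.28, 8.76, 3.36 and 3.76 TPM in WT A, B, D and E. Again Lef1KI A and D were the low libraries, and A was close to WT A and B. The difference was 2.44 (SE 0.61, limma adjusted p 0.0347), and it passed only without Lef1KI A or Lef1KI D of the 9 fits (2.13 to 2.87).

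Il17b (chromosome 18 from 61684887 to 61692538), a ligand of the interleukin-17 family, followed another order. It had 25.2, 6.42, 8.13, 10.9 and 5.52 TPM in Lef1KI A to E, against 0.29, 0.11, 0.46 and 0 TPM in WT A, B, D and E. It was above 5 TPM in every Lef1KI library, highest in the one in which Tslp and Csf3 were lowest, and under 0.5 TPM in WT. The difference was 3.15 (SE 0.35, limma adjusted p 0.000776), and it held in all 9 fits (2.82 to 3.33). Il16, which encodes a precursor with PDZ domains from which a chemoattractant for CD4 cells is cut, rose at a low level. It had 1.18, 0.77, 1.53, 1.21 and 0.94 TPM in Lef1KI A to E, against 0.12, 0.14, 0.23 and 0.36 TPM in WT A, B, D and E. No Lef1KI library overlapped WT (difference 0.80, SE 0.12, limma adjusted p 0.00264, held in all 9 fits).

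Of the 7 TNF superfamily ligands 4 rose, each with groups that did not overlap and each in all 9 fits. Tnfsf9, which encodes the T cell costimulator 4-1BB ligand, had 29.1, 22.7, 24.8, 8.50 and 15.4 TPM in Lef1KI A to E, against 3.25, 2.99, 4.74 and 5.16 TPM in WT A, B, D and E (difference 1.98, SE 0.32, limma adjusted p 0.0038). Lef1KI D was the lowest of its group. Tnfsf11 encodes RANKL, known for driving osteoclasts and for its role in mammary and lymphoid development. It had 11.1, 5.93, 11.2, 10.3 and 4.25 TPM in Lef1KI A to E, against 0.64, 1.30, 1.57 and 1.63 TPM in WT A, B, D and E (difference 2.01, SE 0.28, limma adjusted p 0.00187). Here Lef1KI A, C and D stood together above B and E. Tnfsf12 encodes TWEAK, a multifunctional cytokine. It had 5.23 ± 2.04 TPM in Lef1KI cells and 1.34 ± 0.458 TPM in WT (difference 1.37, limma adjusted p 0.00669), and its reads may be shared with Tnfsfm13, a gene model that overlaps it on the same strand. Tnfsf13b encodes the B cell factor BAFF and stayed low, at 1.08 ± 0.468 TPM in Lef1KI cells and 0.0900 ± 0.0753 TPM in WT (difference 0.90, limma adjusted p 0.00502). The remaining 3 did not pass. Tnfsf15 had 0.36, 1.05, 3.64, 3.23 and 1.96 TPM in Lef1KI A to E, against 0.24 to 0.48 TPM in WT (difference 1.02, limma adjusted p 0.0765). Tnf itself had 2.01 ± 1.01 TPM in Lef1KI cells and 3.76 ± 2.25 TPM in WT (difference −0.62, limma adjusted p 0.239), with WT A at 7.09 TPM. The death ligand gene Tnfsf10 was under 0.6 TPM in every library.

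**Figure D2:**
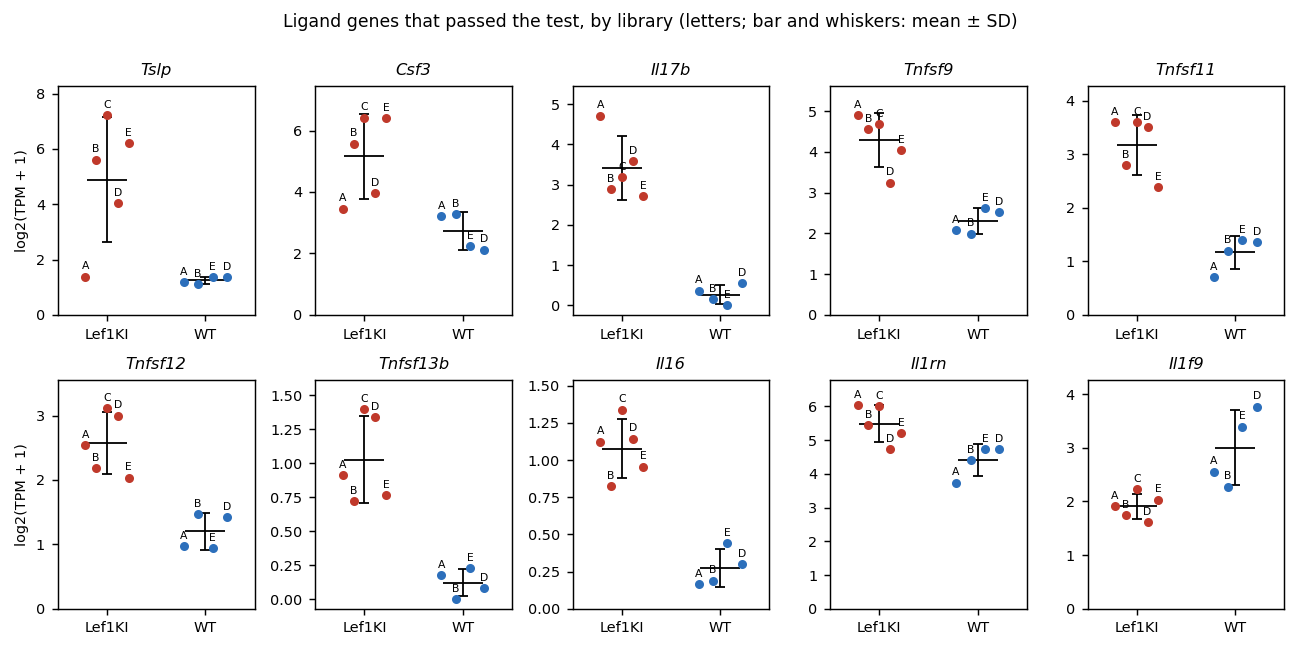
Levels of the 10 ligand genes that passed the test, as log2(TPM + 1) in each of the 5 Lef1KI and 4 WT libraries (points, with library letters); the bar and whiskers are the group's mean and SD on that scale. Tslp and Csf3 were lowest in Lef1KI A, where Il17b was highest, and in Il1f9 all Lef1KI libraries lie below WT.

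None of the 7 remaining short-chain and interleukin-6-type ligands passed (limma, 1 at an unadjusted p under 0.05), although several were well expressed. Csf1, the macrophage growth factor, had 62.6 ± 9.70 TPM in Lef1KI cells and 52.1 ± 9.18 TPM in WT, the highest mean level of the 25 ligands, and Lif, which maintains stem cells through gp130, had 32.5 ± 7.14 TPM in Lef1KI cells and 27.7 ± 7.005 TPM in WT (differences 0.26 and 0.23, limma adjusted p 0.323 and 0.549). Il6 had 2.56, 4.12, 16.2, 4.60 and 5.37 TPM in Lef1KI A to E, against 2.27, 1.78, 2.0 and 1.99 TPM in WT A, B, D and E. All Lef1KI libraries were above all WT libraries, and Lef1KI C stood far above the rest of its group (difference 1.10, SE 0.37, limma adjusted p 0.0986, passing in 2 of the 9 fits). Il24, an epithelial cytokine of the interleukin-10 family, had 4.75, 14.6, 33.9, 0.55 and 40.3 TPM in Lef1KI A to E, against 3.22, 6.80, 4.04 and 5.03 TPM in WT A, B, D and E. Its Lef1KI libraries thus lay on both sides of WT, with D lowest and C and E highest (difference 1.03, limma adjusted p 0.462). Il34, the other ligand of the Csf1 receptor, had 7.15 ± 2.49 TPM in Lef1KI cells and 11.7 ± 6.46 TPM in WT. Il7 was at 1.90 ± 0.793 TPM in Lef1KI cells and 1.05 ± 0.376 TPM in WT, and Il15 and Il17d averaged under 1 TPM in each group.

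Of 6 receptor genes of the interleukin-1 family 2 rose, among them the receptor that the antagonist occupies. Il1r1, the signalling receptor, had 7.89, 6.68, 15.4, 12.8 and 6.72 TPM in Lef1KI A to E, against 2.05, 2.29, 3.52 and 1.93 TPM in WT A, B, D and E. The lowest Lef1KI library was above the highest WT library, with C and D highest (difference 1.61, SE 0.26, limma adjusted p 0.00398, held in all 9 fits). Il1rap encodes the accessory chain that the interleukin-1, interleukin-33 and interleukin-36 receptors share. It had 15.3, 15.6, 22.5, 15.9 and 13.9 TPM in Lef1KI A to E, against 8.93, 7.46, 9.77 and 9.73 TPM in WT A, B, D and E (difference 0.81, SE 0.16, limma adjusted p 0.0121, held in all 9 fits). Il1r2, a decoy receptor that binds interleukin-1 without signalling, had 3.69, 1.12, 2.11, 4.03 and 0.37 TPM in Lef1KI A to E, against 0.28 to 0.70 TPM in WT, and did not pass (difference 0.98, limma adjusted p 0.113). Il1rl2 and Il18r1 had negative differences that did not pass. Il1rl2, the interleukin-36 receptor, had 10.7 ± 3.91 TPM in Lef1KI cells and 15.3 ± 5.42 TPM in WT (−0.47, limma adjusted p 0.302), and Il18r1 had 2.63 ± 0.975 TPM in Lef1KI cells and 5.93 ± 3.66 TPM in WT (−0.81, limma adjusted p 0.18). The soluble inhibitor gene Il18bp had 5.05 ± 2.78 TPM in Lef1KI cells and 3.89 ± 2.07 TPM in WT.

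All 7 receptor genes of the interleukin-6 and interleukin-12 type had positive differences, and 2 passed. Il6st encodes gp130, the signalling chain that interleukin-6, LIF and oncostatin M share. It had 96.8, 80.0, 117, 145 and 85.9 TPM in Lef1KI A to E, against 64.7, 51.4, 59.1 and 73.0 TPM in WT A, B, D and E. The groups did not overlap (difference 0.73, SE 0.18, limma adjusted p 0.0314), but the call ended under both rescalings (0.57 with median centring) and without Lef1KI C, WT A, WT B or WT D (differences 0.60 to 0.81 over the 9 fits). Osmr, the oncostatin M receptor, had 35.7, 23.4, 42.6, 33.3 and 18.1 TPM in Lef1KI A to E, against 12.6, 14.0, 14.5 and 13.7 TPM in WT A, B, D and E. WT libraries lay within 2 TPM of each other and every Lef1KI library was above them (difference 1.05, SE 0.22, limma adjusted p 0.016, held in all 9 fits). Lifr had 5.64 ± 2.12 TPM in Lef1KI cells and 2.93 ± 0.198 TPM in WT (difference 0.69, limma adjusted p 0.12), and Il6ra had 5.24 ± 0.936 TPM in Lef1KI cells and 3.93 ± 0.882 TPM in WT. Il11ra1, which overlaps Galt and whose reads can be confused with a near-identical copy, had 18.5 ± 4.38 TPM in Lef1KI cells and 14.2 ± 1.44 TPM in WT. Il12rb1 and Il27ra averaged under 1 TPM in each group.

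Of the interleukin-17 receptors, Il17rc, a chain of the receptor for interleukin-17A and interleukin-17F, rose. It had 90.2, 123, 151, 127 and 115 TPM in Lef1KI A to E, against 93.8, 71.1, 76.0 and 79.7 TPM in WT A, B, D and E. Lef1KI A lay below WT A, and the other Lef1KI libraries lay above all WT (difference 0.58, SE 0.15, limma adjusted p 0.0363). The call ended under both rescalings (0.42 with median centring) and with no trend, and held in 3 of the 9 fits, those without Lef1KI A, Lef1KI E or WT A (0.50 to 0.68 over the 9). Il17ra, the chain that receptors of the family share, had 16.9 ± 2.89 TPM in Lef1KI cells and 11.9 ± 2.66 TPM in WT (difference 0.49, limma adjusted p 0.144). Il17re had 18.2 ± 5.46 TPM in Lef1KI cells and 13.3 ± 2.48 TPM in WT, and Il17rd, which also restrains FGF signalling, was under 1 TPM throughout. In the interleukin-10 family Il20ra fell. This chain binds interleukin-20 and Il24 together with Il20rb, and had 1.37, 1.27, 0.43, 0.74 and 0.83 TPM in Lef1KI A to E, against 1.26, 2.42, 2.89 and 3.20 TPM in WT A, B, D and E. WT A lay within the Lef1KI range (difference −0.82, SE 0.21, limma adjusted p 0.0351), and the call held in 3 of the 9 fits, those without Lef1KI A, Lef1KI B or WT A (−1.01 to −0.71). Its partner Il20rb had 3.18 ± 0.432 TPM in Lef1KI cells and 3.48 ± 0.554 TPM in WT, and the shared chain gene Il10rb had 33.7 ± 5.89 TPM in Lef1KI cells and 33.0 ± 5.70 TPM in WT. Il22ra1 and Il22ra2 averaged under 1 TPM in each group, and reads of Il10rb can be shared with an overlapping gene model, Gm21970.

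Receptors of the short-chain cytokines, 7 in number, had positive differences (6 of the 7 under either rescaling, where Il13ra1 turned negative) and none passed (limma, 2 at an unadjusted p under 0.05). Crlf2, the specific chain of the Tslp receptor, had 13.0 ± 2.57 TPM in Lef1KI cells and 10.4 ± 0.594 TPM in WT (difference 0.28, limma adjusted p 0.32), while Il7r, its partner chain, was not analysed here. Il15ra, which presents interleukin-15, had 5.62, 7.37, 15.2, 10.8 and 5.67 TPM in Lef1KI A to E, against 2.92, 5.87, 3.84 and 2.74 TPM in WT A, B, D and E, with B of WT inside the Lef1KI range (difference 0.99, limma adjusted p 0.0689). Il2rg, the common gamma chain, which overlaps the gene model Gm20489 on its strand, had 5.62 ± 2.44 TPM in Lef1KI cells and 2.57 ± 1.29 TPM in WT (difference 0.88, limma adjusted p 0.147). The chains of the receptor for interleukin-4 and interleukin-13 were expressed in both groups, Il4ra at 14.1 ± 4.40 TPM in Lef1KI cells and 9.92 ± 2.19 TPM in WT, and Il13ra1 at 36.5 ± 3.59 TPM in Lef1KI cells and 35.7 ± 8.37 TPM in WT. Il3ra had 19.4 ± 3.51 TPM in Lef1KI cells and 16.9 ± 5.56 TPM in WT, and Csf2ra, the receptor chain for GM-CSF, had 2.80 ± 1.21 TPM in Lef1KI cells and 1.80 ± 0.437 TPM in WT.

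Of 13 TNF receptor genes, 2 rose. Tnfrsf11b encodes osteoprotegerin, a secreted decoy for RANKL, and had 36.4, 23.9, 15.2, 24.8 and 5.59 TPM in Lef1KI A to E, against 0.82, 0.60, 3.80 and 3.57 TPM in WT A, B, D and E. Lef1KI E was the lowest of its group and still above WT D (difference 2.76, SE 0.51, limma adjusted p 0.00787, held in all 9 fits). The decoy and its ligand Tnfsf11 thus both rose, and both were lowest in Lef1KI E. Tnfrsf1b, the second TNF receptor, had 6.28, 4.93, 9.76, 6.36 and 4.71 TPM in Lef1KI A to E, against 1.81, 2.72, 3.93 and 3.32 TPM in WT A, B, D and E. The groups did not overlap (difference 0.90, SE 0.23, limma adjusted p 0.0349), and the call was lost without Lef1KI C, Lef1KI D, WT A, WT B or WT E (0.75 to 1.02 over the 9 fits). The main TNF receptor, Tnfrsf1a, was the most abundant receptor of the 43 and had 169 ± 27.7 TPM in Lef1KI cells and 160 ± 19.2 TPM in WT (difference 0.07, limma adjusted p 0.767). Its difference was −0.09 with median centring, so its direction is not established. Tnfrsf12a, the receptor of TWEAK, had 114, 122, 237, 77.2 and 274 TPM in Lef1KI A to E, against 85.0, 138, 107 and 100 TPM in WT A, B, D and E, with Lef1KI C and E high and D below all WT (difference 0.47, limma adjusted p 0.406). Tnfrsf9, the receptor of 4-1BB ligand, had 1.27 ± 0.178 TPM in Lef1KI cells and 3.50 ± 2.56 TPM in WT (difference −0.79, limma adjusted p 0.191). Tnfrsf22, Tnfrsf23 and Tnfrsf26 are neighbouring related genes on chromosome 7 among which reads could be split, and Tnfrsf23 had 21.2 ± 6.44 TPM in Lef1KI cells and 31.6 ± 9.99 TPM in WT (difference −0.56, limma adjusted p 0.244). Differences of the other 7 receptors lay between −0.53 (Tnfrsf18) and 0.49 (Tnfrsf4), the death receptor gene Tnfrsf10b being at 39.1 ± 5.82 TPM in Lef1KI cells and 40.4 ± 4.26 TPM in WT.

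**Figure D3:**
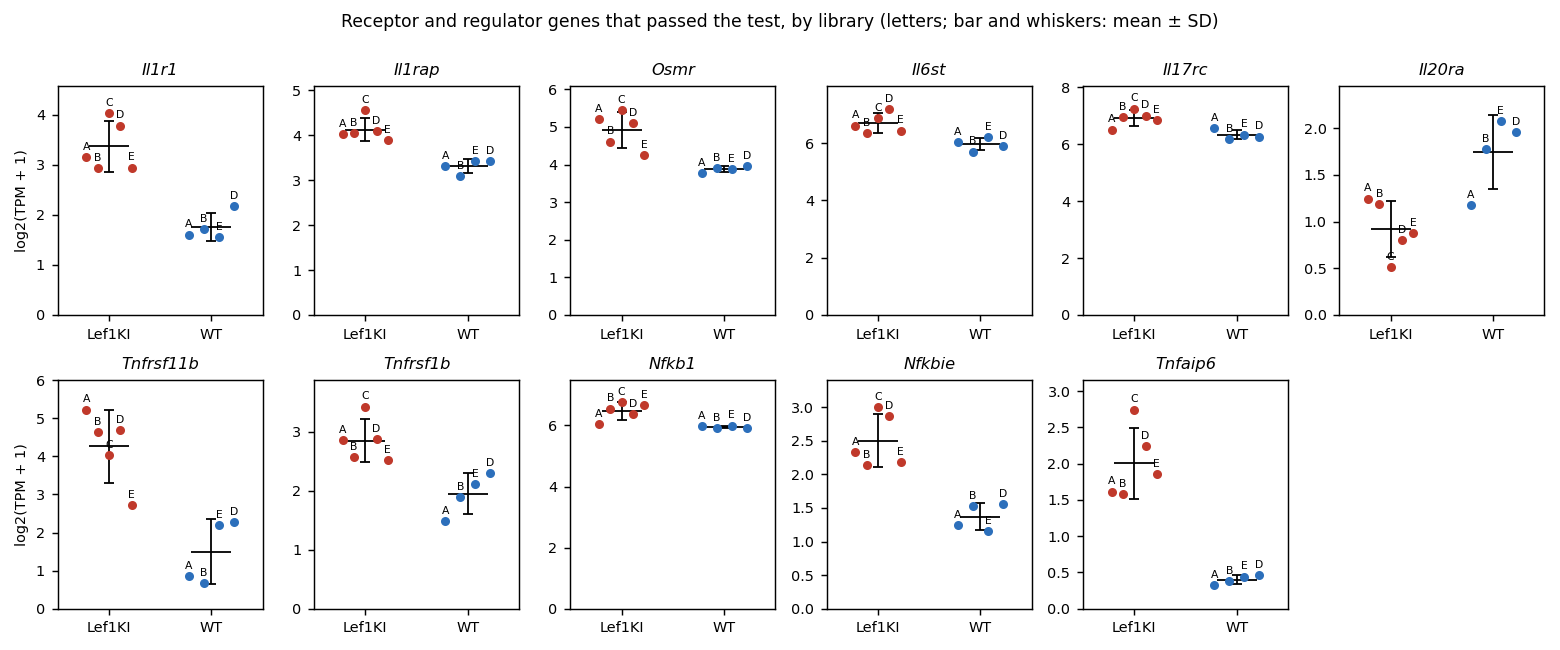
Levels of the 8 receptor and 3 regulator genes that passed the test, as log2(TPM + 1) in each of the 5 Lef1KI and 4 WT libraries (points, with library letters); the bar and whiskers are the group's mean and SD on that scale. The groups are apart in all but Il17rc and Il20ra, and Osmr and Nfkb1 are nearly constant over the WT libraries.

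Among the regulators and other genes matched by name 3 rose, and the 5 NF-kB subunits had small positive differences (4 of them positive under either rescaling). Nfkb1, which encodes the p105 precursor of the p50 subunit, had 64.6, 92.5, 107, 81.5 and 101 TPM in Lef1KI A to E, against 62.1, 59.6, 59.7 and 62.7 TPM in WT A, B, D and E. Lef1KI A stood next to the WT libraries, which were within 4 TPM of each other (difference 0.52, SE 0.14, limma adjusted p 0.0494). The call held in 1 of the 9 fits, without Lef1KI A (0.45 to 0.63), and ended under both rescalings (0.36 with median centring), with the filter at 1 TPM and with no trend. Nfkb2, the precursor of p52, had 51.2, 77.4, 86.7, 47.9 and 85.5 TPM in Lef1KI A to E, against 47.4, 35.3, 42.1 and 41.3 TPM in WT A, B, D and E, with no overlap (difference 0.70, limma adjusted p 0.0547). Relb and Rela had 40.3 ± 7.59 and 52.5 ± 7.94 TPM in Lef1KI cells, against 31.3 ± 2.07 and 41.2 ± 7.50 TPM in WT (differences 0.33 and 0.35, limma adjusted p 0.21 and 0.206). Rel was the same to within 1 TPM in all libraries, at 6.50 ± 0.334 TPM in Lef1KI cells and 6.32 ± 0.139 TPM in WT. Among the I-kB genes, Nfkbie (I-kB epsilon) rose, at 4.01, 3.40, 7.0, 6.28 and 3.55 TPM in Lef1KI A to E, against 1.36, 1.87, 1.95 and 1.22 TPM in WT A, B, D and E (difference 1.13, SE 0.21, limma adjusted p 0.00808, held in all 9 fits). Nfkbib (I-kB beta) had 72.7 ± 16.3 TPM in Lef1KI cells and 47.9 ± 5.71 TPM in WT (difference 0.57, limma adjusted p 0.07), Nfkbiz had 57.4 ± 10.9 TPM in Lef1KI cells and 47.8 ± 6.56 TPM in WT, and Nfkbid was under 1 TPM in each group. Nfkbia, which encodes I-kB alpha and is the most abundant of the 93 genes, had 313, 379, 202, 199 and 218 TPM in Lef1KI A to E, against 526, 248, 157 and 178 TPM in WT A, B, D and E. The groups overlapped fully, WT A was highest of all, and the sign of the difference (0.04, limma adjusted p 0.954) turned to −0.12 with median centring. Tnfaip3, the A20 deubiquitinase that ends NF-kB signalling, showed the same spread, with 14.9 to 25.5 TPM in Lef1KI cells and 8.69 to 43.6 TPM in WT, where WT A was again the highest (difference 0.23, limma adjusted p 0.731). Tnfaip6 encodes TSG-6, a secreted hyaluronan-binding protein induced by TNF and interleukin-1. It had 2.06, 1.98, 5.70, 3.74 and 2.62 TPM in Lef1KI A to E, against 0.25, 0.30, 0.38 and 0.36 TPM in WT A, B, D and E (difference 1.60, SE 0.22, limma adjusted p 0.00186, held in all 9 fits).

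None of the 7 SOCS genes passed (limma, 1 at an unadjusted p under 0.05), and their differences lay between 0.02 (Socs7) and 0.68 (Socs2); under either rescaling 5 of the 7 were positive, and Socs7 and Socs3 turned negative (−0.14 and −0.013 with median centring). Socs3, the feedback inhibitor of gp130 signalling, had 34.2 ± 8.98 TPM in Lef1KI cells and 31.1 ± 10.1 TPM in WT (difference 0.15, limma adjusted p 0.757). Socs1 had 4.31 ± 1.37 TPM in Lef1KI cells and 3.52 ± 2.16 TPM in WT. Socs5 had 11.3 ± 1.35 TPM in Lef1KI cells and 7.66 ± 0.846 TPM in WT, without overlap (difference 0.50, limma adjusted p 0.0633). Of the other genes matched by name, Tnfaip8, a regulator of cell survival, had 78.2 ± 15.2 TPM in Lef1KI cells and 68.0 ± 6.15 TPM in WT (difference 0.18, limma adjusted p 0.487). Tnfaip1 and Tnfaip2 had 74.7 ± 25.1 and 65.1 ± 26.4 TPM in Lef1KI cells, against 50.8 ± 1.39 and 42.5 ± 17.9 TPM in WT, and neither passed. Il4i1, which overlaps Nup62, and Tnfaip8l1 averaged between 1 and 2 TPM in each group.

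The 19 risen genes did not share 1 order over the Lef1KI libraries. Lef1KI C was the highest of its group for 14 of the 19, A for 4 and D for 1. Lef1KI C also had the highest median log2(TPM + 1) over all genes of any library (3.97). The lowest was E for 7, B for 6, A for 4 and D for 2. For Tslp, Csf3 and Nfkb1 the order from high to low was C, E, B, D, A. For Tnfsf12 and Tnfrsf1b it was C, D, A, B, E, which is also the order of the summed fibroblast markers (980, 819, 644, 477 and 294 TPM). For Tnfsf13b, Il16, Il1r1 and Nfkbie it was C, D, A, E, B, which differs from the fibroblast order only in B and E. Il1rap, Il17rc and Tnfaip6 also had C and then D highest, and the remaining risen genes had other orders. The fibroblast sum was higher in every Lef1KI than in every WT library, as were most risen genes, and its part in these results was not tested. The sum over the 25 ligands was 280, 331, 567, 238 and 400 TPM in Lef1KI A to E, against 165, 167, 177 and 167 TPM in WT A, B, D and E. That of the 43 receptors was 893 to 1167 TPM in Lef1KI cells and 716 to 840 TPM in WT, and that of the 25 regulators and other genes, which overlapped, was 897 to 1180 TPM in Lef1KI cells and 776 to 1138 TPM in WT.

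**Figure D4:**
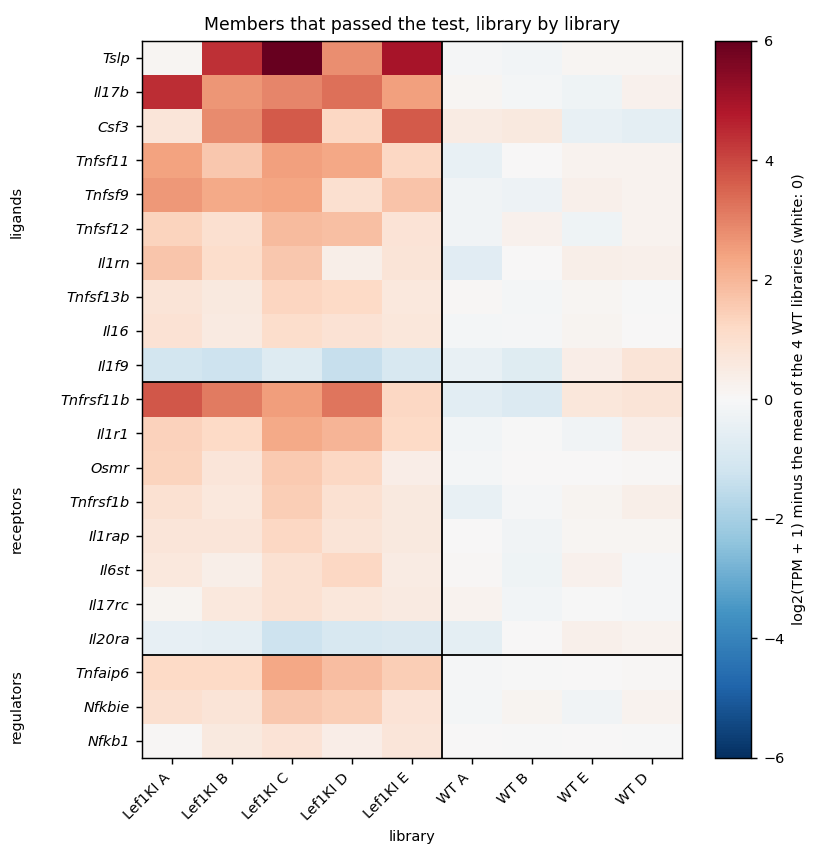
Log2(TPM + 1) of the 21 genes that passed, minus the gene's mean over the 4 WT libraries, for each library (columns, Lef1KI A to E left of the line and WT right of it), grouped by role. Tslp and Csf3 are paler in Lef1KI A and D than in B, C and E, whereas Il17b and Tnfrsf11b are strongest in A and D.

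**Figure D5:**
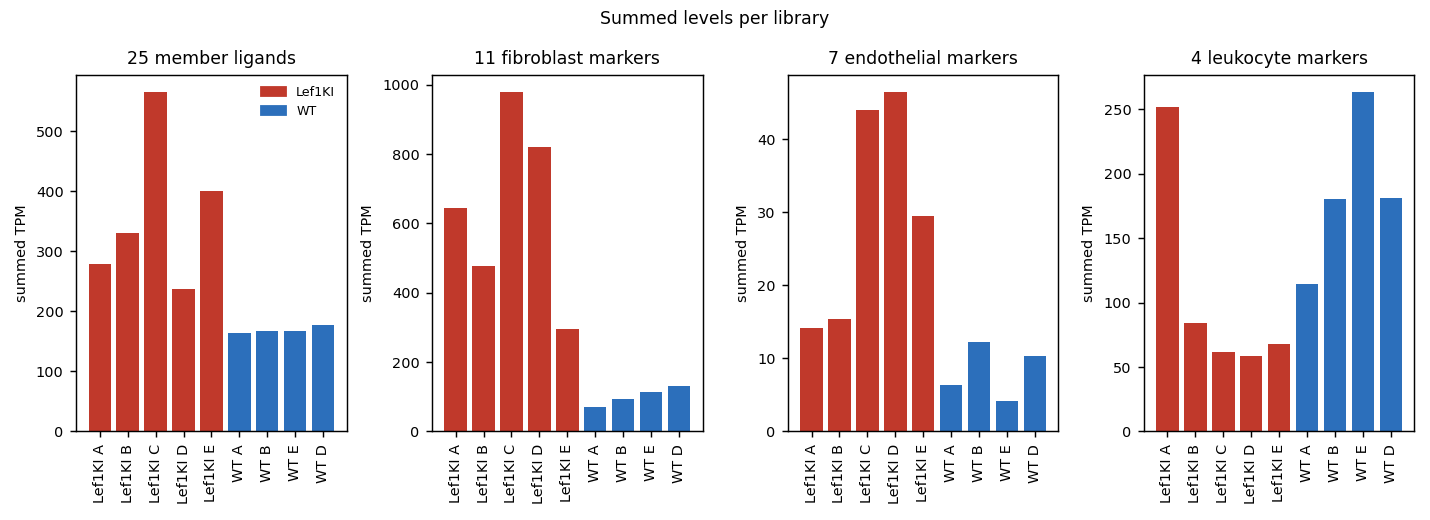
Summed TPM per library (bars, Lef1KI red and WT blue) of the 25 ligands, 11 fibroblast markers, 7 endothelial markers and 4 leukocyte markers. Ligand, fibroblast and endothelial sums are higher in every Lef1KI library than in every WT library, while the leukocyte sums, mostly Cd68, overlap. Esam, whose difference was negative, is the largest part of the endothelial sum in WT B, D and E.

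Lists of genes that act downstream of these receptors, and are not counted among the 93, gave 8 calls, all higher. Over all genes 84.5% of the calls were higher. Of 38 adaptors and kinases of interleukin-1, TNF and NF-kB signalling 2 rose and 0 fell (5.26%, against 7.97% of all genes, with 14 at an unadjusted p under 0.05), and their median difference was 0.25. Ikbke, an I-kB kinase-related kinase, had 24.99 ± 6.58 TPM in Lef1KI cells and 9.52 ± 3.22 TPM in WT (difference 1.31, limma adjusted p 0.0079, held in all 9 fits), and Birc2, the ubiquitin ligase cIAP1, had 25.6 ± 9.18 TPM in Lef1KI cells and 12.3 ± 2.48 TPM in WT (0.95, limma adjusted p 0.0334, held in 4). Of 26 JAK, STAT and negative regulator genes 2 rose (7.69%, with 4 at an unadjusted p under 0.05) and the median was 0.13. Jak2 had 18.1 ± 4.56 TPM in Lef1KI cells and 9.55 ± 1.47 TPM in WT (0.84, limma adjusted p 0.0181, held in 7), and the adaptor Sh2b1 had 14.2 ± 2.08 TPM in Lef1KI cells and 9.37 ± 0.509 TPM in WT (0.54, limma adjusted p 0.0448, held in 1). Of 18 genes known to be induced by NF-kB 4 rose (22.2%) and the median was 0.22. The iron-binding defence protein gene Lcn2 had 1417 ± 410 TPM in Lef1KI cells and 742 ± 186 TPM in WT (0.91, limma adjusted p 0.0463, held in 2), and the adhesion molecule gene Vcam1 had 18.04 ± 6.92 TPM in Lef1KI cells and 6.86 ± 1.67 TPM in WT (1.21, limma adjusted p 0.0313, held in 4). Tnip1, a partner of A20, and Sod2, the mitochondrial superoxide dismutase, rose by 0.70 and 0.55 (limma adjusted p 0.0289 and 0.0314, each held in 4). After median centring 4 genes of the 3 lists passed (7.03% of all genes did). Without WT B or WT E 1 passed (4.82% and 4.71% of all genes), and without Lef1KI C 2 passed (5.68% of all genes).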

How the data were processed

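RNA of 9 libraries was sequenced after a stranded TruSeq mRNA preparation, per the labels' protocols. The deposited table holds log2 values, log2(TPM + 1), which the authors made with RSEM on mm10, per the submitters' processing notes; version, aligner, annotation and strand setting: not given in the sources used here. Checked on the values, TPM recovered from them come out as whole hundredths (within 0.01 of one) for 100.0% of entries below 50 TPM. The authors kept genes with a mean of at least 3 SD in a group (lowest best ratio found 3.002). TPM keeps no depth: counting errors cannot be given, and errors here are SDs or SEs over libraries. No library pair had more than 92 equal values.

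The letters that end the column names are in no label, so columns were put in groups by name. The test was limma 3.58.1, run in R 4.3.3 (intensity trend, group as only term, no further filter, two-sided, Benjamini-Hochberg over 13336 genes), after tests on simulated data. The p-values measure the spread between pooled cultures. The members and lists were chosen with earlier results of these data known. Named are the genes that passed, the 3 most abundant per role, the 5 largest other differences per direction with a mean of at least 1 TPM, and measured partners of those that passed; other members are given to fill their family, and those given with a p (Il1r2, Il2rg, Lifr, Nfkb2, Nfkbib, Rela, Relb, Socs3, Socs5, Tnfaip3) were picked after their values were seen. Alternatives were median centring, trimmed-mean scaling (30% of ratios and 5% of levels trimmed at each side), a pseudocount of 0.1, a filter at 1 TPM, no trend, library weights, leaving out each library and, added after seeing the data, a block on column letter. Coordinates come from GENCODE M21. The values of 1 member are not reported here; counts, medians and sums include it.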

Additional observations from a re-analysis of the deposited data

Results flagged for a closer look

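Gaps between libraries were taken on the log2(TPM + 1) scale, and on the TPM scale the groups flagged can differ. Of 82 groups of values examined (41 named genes in each group of libraries), 2 had a library whose gap to its nearest neighbour took up more of the group's range than the 95% limit of Dixon's test allows. Chance alone flags about 1 in 20 groups. Il1rap, the accessory chain of the interleukin-1 receptor, was at 22.5 TPM in Lef1KI C, and the other Lef1KI libraries lay between 13.9 and 15.9 TPM. Il17ra, the common interleukin-17 receptor chain, was at 7.93 TPM in WT A, and the other WT libraries lay between 12.9 and 13.8 TPM.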

How the results depend on the processing

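Of the 21 calls, 12 held in all 15 alternatives other than the letter block below: Il17b, Il16, Tnfsf9, Tnfsf11, Tnfsf12, Tnfsf13b, Il1r1, Il1rap, Osmr, Tnfrsf11b, Nfkbie and Tnfaip6. Every alternative started from the genes that the authors' filter had kept. Il17b, Il16, Tnfsf13b and Tnfrsf11b passed that filter only through Lef1KI, where they are high, so holding here is no independent support for them. The 93 genes gave 32 calls with library weights (6 of them lower, over 2334 of all genes, 17.5%) and 17 under either rescaling. Over all genes the rescalings gave 937 calls (7.03%, median centring) and 974 (7.30%, trimmed-mean scaling). When a library was left out the 93 genes gave 13 to 29 calls, 12 to 27 of them higher and 0 to 3 lower. Over all genes the count without a library ran from 628 to 1686, and 84.5% of calls were higher in the main result, 64.6% after median centring, 70.1% after trimmed-mean scaling. Other pathway genes gave 8 calls, but 4 after median centring, 3 after trimmed-mean scaling, 15 with library weights and 1 to 10 without a library. Among the 41 named genes signs turned only for Nfkbia (−0.12 after median centring, −0.13 after trimmed-mean scaling, and −0.036, −0.10, −0.11 and −0.17 without Lef1KI A, Lef1KI B, WT E and WT D, with up to 0.40 without WT A) and Tnfrsf1a (−0.087, −0.099, −6.1e-05 with library weights and −0.013 without Lef1KI A, with up to 0.14 without Lef1KI E). The Lef1 difference was 7.07 to 8.63 and kept its call under each rescaling, the other pseudocount and without each library. The cause of these changes was not tested. A fit by the labels' replicate numbers could not be made because the columns carry letters and not the replicate numbers of the labels; the planned replicate block was therefore not run. A replicate block by column letter, chosen after seeing the data, gave 9 calls among the 93 genes (9 higher, 0 lower), 484 over all genes and 2 among other pathway genes, and kept 8 of the 21, losing Tnfsf9, Il1rap, Osmr and Tnfrsf11b of the 12. Deviations of same-letter libraries correlated at −0.259 (A), 0.0199 (B), 0.258 (D) and −0.148 (E) across genes, and only D correlated best with its own letter in both groups. What a shared letter stands for is in no label, and these few correlations cannot settle whether cultures of a letter were paired. Depth is unknown, so for genes under about 1 TPM, such as Il16 and Tnfsf13b in WT, the counting error cannot be told from these values.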
